A study of Rattus norvegicus with 8 samples.

Results

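Galectins are lectins that bind β-galactosides on cell-surface and matrix glycoproteins, and together with the receptor CD44 and its neighbours in the membrane they shape adhesion, migration and phagocytosis. The 8 genes described here are the galectins *Lgals1*, *Lgals3*, *Lgals8* and *Lgals9*, the galectin-binding glycoprotein gene *Lgals3bp*, and the surface protein genes *Cd44*, *Cd9* and *Cd24*. They were taken by name from the 15159 genes to which probes of a rat Agilent array could be matched, each represented by its probe with the highest mean log2 intensity. The array compared hypothalamic RNA of retinoic acid (RA) injected and vehicle injected male F344N rats, 24 hrs after an injection of 5 μl into the third ventricle. All rats had a cannula implanted beforehand and were held in SD (8 h light and 16 h dark), and the methods give 4 RA and 4 vehicle rats. The deposited labels give 1e-05 M all-*trans* RA and saline as the vehicle, whereas the methods give 1e-04 M RA in 10% DMSO in saline. RNA came from frozen blocks of 60 to 80 mg that included the arcuate nuclei, so many cell types were measured together, and more cells of a type cannot be told apart from more RNA per cell. Each of 8 two-channel arrays held RA and vehicle RNA in opposite dyes, with RA in Cy5 on arrays 1, 3, 6 and 8 and in Cy3 on arrays 2, 4, 5 and 7.

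In the brain, galectin-3 is known from activated microglia and macrophages, galectin-1 from astrocytes and vessels, and galectin-3-binding protein as a secreted product of interferon-treated cells. CD44 binds hyaluronan and osteopontin and is linked to the actin skeleton through ezrin, radixin and moesin. CD9 is a tetraspanin that organises integrins and immunoglobulin-superfamily partners in the membrane, and CD24 is a small glycosylphosphatidylinositol-anchored sialoglycoprotein that binds P-selectin and Siglec receptors.

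Promoter windows are shown for the genes that rose and for *Lgals9*, which varied with *Lgals3bp* across arrays. The RefSeq table (build GRCr8) held the bases before the start site for 6 of the 8 genes, and *Lgals1* and *Lgals3* had no entry. The 250 bases before the start were searched on both strands for 9 motifs, chosen after the values of these genes were known. The *Lgals3bp* window, on the minus strand of chr10:104127849-104128098, is given whole, and the *Cd44* and *Lgals9* windows, which lie partly inside the annotated extent of their genes, are given as stretches of 30 bases around a match. Capitals mark matches to GAAANNGAA, TGANTCA and AGGTCA on either strand, and matches to the other motifs are left in lower case.
Lgals3bp: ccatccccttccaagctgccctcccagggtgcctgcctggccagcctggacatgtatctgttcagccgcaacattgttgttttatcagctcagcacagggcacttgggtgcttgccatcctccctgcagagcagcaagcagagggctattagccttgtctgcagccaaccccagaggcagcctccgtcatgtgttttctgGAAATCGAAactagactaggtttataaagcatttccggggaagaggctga
Cd44, minus strand of chr3:109699460-109699489: tccctccctcttAGGTCActctttcaaagc
Lgals9, minus strand of chr10:64428092-64428121: ctcctccccgtTGAGTCAgtgccaagtagc
Lgals9, minus strand of chr10:64428071-64428100: ccaagtagctgtggtTTCTGTTTCctagct

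The *Lgals3bp* window held a match to the interferon-stimulated response element as searched here (GAAANNGAA), from 50 to 42 bases before the start. *Lgals9* held a match to the same motif from 15 to 7 bases before its start and a match to the AP-1 motif TGANTCA from 40 to 34 bases before it. Of 33469 windows of 250 bases, 8.12% held the first motif and 6.34% the AP-1 motif. *Cd44* held the nuclear receptor motif AGGTCA, which retinoic acid receptors bind as direct repeats, once, from 53 to 48 bases before the start, and 14.1% of all windows held that motif. *Lgals3bp* also had overlapping matches to TATAAA, which 12.9% of windows held. The windows of *Cd9* and *Cd24* each held 3 matches to the Sp1 motif GGGCGG and that of *Lgals8* held 2, against 30.5% of all windows with at least 1. *Cd9* also held the ETS motif GAGGAAG (10.2% of windows) and *Lgals9* the CEBP motif TTGCNNAA (9.22%). None of the 6 windows held the kappa B motif GGGANTTTC (0.953% of all windows) or the GAS motif TTCNNNGAA (7.67%). A match to such short motifs describes the sequence and does not show a binding site.

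After RA, *Lgals3*, *Cd44* and *Lgals3bp* rose and none of the 8 genes fell. *Lgals3* rose 3.55-fold, *Cd44* 1.79-fold and *Lgals3bp* 1.44-fold. A gene was called at an unadjusted limma p under 0.01, the threshold of the study's methods, and by that measure 3 of the 8 genes passed. Among all 15159 named genes 654 (4.31%) passed, 534 (3.52%) upwards and 120 (0.792%) downwards. After Benjamini-Hochberg adjustment over all probes limma called none of the 8 genes (0 under 0.05, with 4 of the 8 at an unadjusted p under 0.05) and no named gene at all (0%). These adjusted p values take the largest p over the ways of pairing the arrays, and they depend on that choice and on the model fitted. With the 8 arrays taken as independent, limma gave an adjusted p of 0.00672 for *Lgals3*, 0.0165 for *Cd44* and 0.0251 for *Lgals3bp*. With pairs as a random block, limma gave adjusted p values of 0.0158, 0.0367 and 0.0545, where the largest p over the pairings was also kept. That fit used a correlation within pairs shared by all probes, which ran from -0.21 to 0.319 over the pairings. The methods describe dye-swaps, so the fit with independent arrays counts arrays that share RNA as separate replicates and overstates the replication. The log2 ratio of RA over vehicle was above 0 on all 8 arrays for *Lgals3*, *Cd44*, *Lgals3bp* and *Lgals1*, so for 4 of 8 genes, against 618 (4.08%) of 15156 named genes with a ratio on every array. The median log2 fold change of the 8 genes was 0.14, and that of all named genes was -0.0046 with an SD over genes of 0.17. In either channel of all 8 arrays, the probes of all 8 genes were well above background, so none of the ratios rests on an undetected probe.

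**Figure D1:**
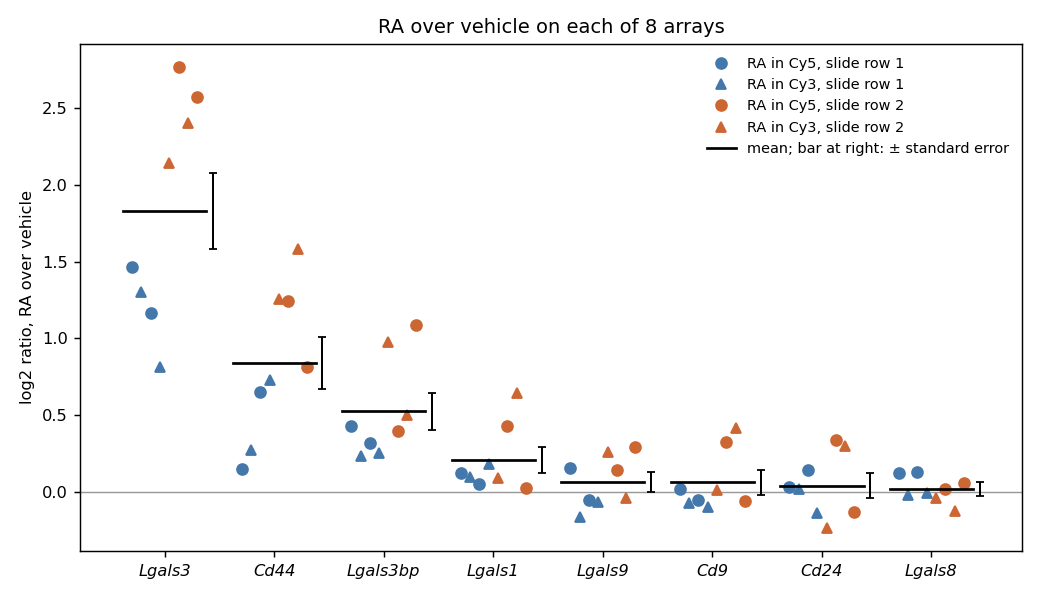
Log2 ratio of RA over vehicle (y axis) of the 8 genes (x axis) on each of 8 arrays, with the dye order given by the shape and the row of the slide by the colour of the point. Horizontal lines are means and the bars at their right give the limma standard error. *Lgals3* lies between 0.82 and 2.77, whereas *Lgals8* lies between -0.13 and 0.13.

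Across the 24 ways in which arrays of opposite dye order can be paired, *Lgals3*, *Cd44* and *Lgals3bp* passed the threshold in 24. Neither labels nor methods state which arrays share RNA, so the largest p over the pairings is given throughout. The p values measure the spread among 4 means, each of 1 array of either dye order, and part of that spread is technical. The arrays lay in 2 rows of 1 slide, arrays 1 to 4 in the first and 5 to 8 in the second. Ratios of arrays 6 and 7 (Pearson's r = 0.618 over probes) and of arrays 5 and 8 (r = 0.550) were the most alike among all pairs. In the first row, r was 0.099 for arrays 1 and 2 and 0.090 for arrays 3 and 4. Both were below the r of arrays 1 and 3 (0.306) and of arrays 2 and 4 (0.293), which have the same dye order. The choroid plexus gene *Ttr* had log2 ratios of 1.76 and 1.74 on arrays 1 and 2, and 0.73 and 0.57 on arrays 3 and 4. Arrays 5 and 8 gave 1.21 and 1.37 for *Ttr*, and arrays 6 and 7 gave -4.48 and -5.11. On the same pairs *Crym* gave 0.15 and 0.17, 1.45 and 1.37, -0.11 and -0.23, and 0.64 and 0.69. Whether these arrays share RNA was not tested. If the arrays with like *Ttr* and *Crym* ratios share RNA, each row holds different rats, so that slide row and rat cannot be told apart. Probes are not independent replicates. The share of probes well above background ran from 57.4% to 74.6% in RA channels and from 61.2% to 74.5% in vehicle channels, and the image software had marked 0.913% to 2.42% of the spots of an array as outliers.

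*Lgals3* encodes galectin-3, the chimera-type galectin that forms multimers on the cell surface and marks damaged endosomes. Its log2 ratio was 1.46, 1.30, 1.17 and 0.82 on arrays 1 to 4 and 2.14, 2.77, 2.40 and 2.57 on arrays 5 to 8. All arrays of the second row were above all arrays of the first, with row means of 2.47 and 1.19. The log2 fold change was 1.83 ± 0.25 (SE), its 95% confidence interval ran from 1.25 to 2.41, and limma gave an unadjusted p of 1.34e-04 (adjusted p = 0.222). Arrays with RA in Cy5 had a mean ratio of 1.99 and those with RA in Cy3 one of 1.67. The normalised log2 intensity of *Lgals3* had a lowest value of 12.29, a median of 12.78 and a highest value of 14.46 in the RA channels, and the corresponding vehicle levels were 10.97, 11.14 and 12.05. The lowest RA level was thus above the highest vehicle level, which held for *Lgals3* alone among the 8 genes and for 43 (0.284%) of 15156 named genes. *Lgals3* had the highest log2 ratio of the 8 genes on 8 of 8 arrays, and it ranked 11 among all named genes by p and 11 by the size of the rise.

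*Lgals3bp* encodes the secreted glycoprotein that binds galectin-3 and galectin-1 as well as integrins and collagens. Its log2 ratio was 0.43, 0.23, 0.32 and 0.25 on arrays 1 to 4 and 0.98, 0.40, 0.50 and 1.08 on arrays 5 to 8. The ratio was highest on arrays 5 and 8, and the row means were 0.31 and 0.74. The log2 fold change was 0.52 ± 0.12 (SE), its 95% confidence interval ran from 0.24 to 0.81, and limma gave an unadjusted p of 0.00307 (adjusted p = 0.268). Normalised log2 intensities were 10.64 to 12.18 in the RA channels (median 11.39) and 10.26 to 11.44 in the vehicle channels (median 10.79), so the groups overlapped although RA was higher on each array. Both channels were brighter on the second row than on the first, as every RA and every vehicle level of arrays 5 to 8 exceeded the corresponding levels of arrays 1 to 4.

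*Cd44* encodes the receptor for hyaluronan and osteopontin. Its log2 ratio was 0.15, 0.28, 0.65 and 0.73 on arrays 1 to 4 and 1.26, 1.24, 1.58 and 0.81 on arrays 5 to 8. The second row again lay above the first without overlap, with row means of 1.22 and 0.45. The log2 fold change was 0.84 ± 0.17 (SE), its 95% confidence interval ran from 0.44 to 1.23, and limma gave an unadjusted p of 0.00148 (adjusted p = 0.242). RA levels were 8.06 to 9.83 (median 8.93) and vehicle levels 7.79 to 8.57 (median 8.00) as normalised log2 intensity, and the groups overlapped. *Cd44* had the second highest ratio of the 8 genes on 6 arrays and *Lgals3bp* on the remaining 2.

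The array carried 3 other probes for *Cd44*, and these did not show the rise. Their log2 fold changes were 0.07, 0.02 and 0.04, with unadjusted p values of 0.472, 0.821 and 0.452 in limma. The first was well above background on 3 arrays in the RA channel and 2 in the vehicle channel, and the other probes on none (0 in either channel), so that their ratios say little about the transcript. Averaged over all *Cd44* probes, the log2 fold change was 0.24 (unadjusted limma p of 0.00634). The *Cd44* probe that rose had 1 spot on each array, against 10 for the *Cd9* probe and 2 for those of the remaining genes. The other 7 genes had 1 probe each.

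**Figure D2:**
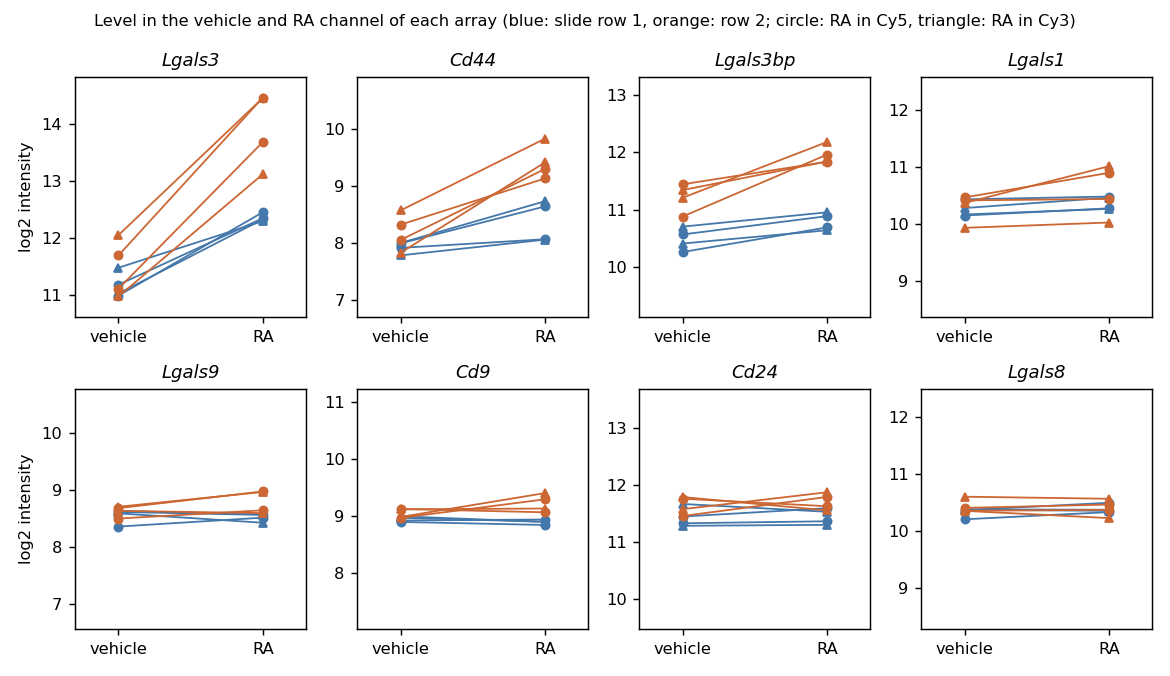
Normalised log2 intensity (y axis) of each of the 8 genes in the vehicle and the RA channel, with a line joining the channels of 1 array. Blue is the first and orange the second row of the slide, circles have RA in Cy5 and triangles RA in Cy3. All panels span the same range. All 8 lines of *Lgals3* rise, from 10.97 to 12.05 in the vehicle channels to 12.29 to 14.46 in the RA channels, whereas those of *Lgals8* stay between 10.21 and 10.61.

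*Lgals1* encodes galectin-1, a dimeric galectin of astrocytes and vessel walls. Its log2 ratio was 0.13, 0.10, 0.05 and 0.18 on arrays 1 to 4 and 0.09, 0.43, 0.64 and 0.03 on arrays 5 to 8. It was thus above 0 on all arrays, but the higher values were those of arrays 6 and 7. The log2 fold change was 0.21 ± 0.08 (SE), limma gave an unadjusted p of 0.0431 (adjusted p = 0.442), and the gene passed 0.01 in 17 of the 24 pairings. Without arrays 6 and 7 its log2 fold change was 0.10 with an unadjusted limma p of 0.0991.

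The galectins with 2 carbohydrate-recognition domains in 1 chain, *Lgals8* and *Lgals9*, did not pass the threshold. Galectin-8 acts in the recognition of damaged endosomes and galectin-9 is a ligand of the immune receptor TIM-3. The log2 ratio of *Lgals8* was 0.02 to 0.13 on the 4 arrays with RA in Cy5 and -0.13 to -0.01 on the 4 arrays with RA in Cy3, so its sign followed the dye. Its log2 fold change was 0.02 with a 95% confidence interval of -0.09 to 0.13 (unadjusted p = 0.714 in limma), the narrowest interval of the 8 genes. The log2 ratio of *Lgals9* reached 0.26 and 0.29 on arrays 5 and 8, and the other 6 arrays gave -0.16 to 0.16. Its log2 fold change was 0.07 with a 95% confidence interval of -0.09 to 0.22 (unadjusted p = 0.346 in limma). Without arrays 5 and 8 it was -0.0031, and without them the log2 fold change of *Lgals3bp* was 0.36 with an unadjusted limma p of 8.78e-04.

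*Cd9* and *Cd24* did not pass the threshold either. On arrays 6 and 7 the log2 ratio of *Cd9* was 0.32 and 0.42, while the other arrays gave -0.10 to 0.02. *Cd24* had ratios of 0.34 and 0.30 on these arrays, while the others gave -0.23 to 0.15. The log2 fold change was 0.06 for *Cd9* (95% confidence interval -0.12 to 0.25, unadjusted p = 0.458 in limma) and 0.04 for *Cd24* (95% confidence interval -0.15 to 0.23, unadjusted p = 0.626 in limma). Without arrays 6 and 7 both values were below 0, at -0.04 for *Cd9* and -0.05 for *Cd24*. The upper ends of the intervals of *Lgals8*, *Lgals9*, *Cd9* and *Cd24* lay between 0.13 and 0.25, and their adjusted limma p between 0.802 and 0.946.

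The 8 genes thus showed differing patterns over the arrays. *Lgals1*, *Cd9* and *Cd24* were each highest on arrays 6 and 7, and *Lgals3bp* and *Lgals9* were each highest on arrays 5 and 8. Over the 8 arrays Pearson's r was 0.942 between *Lgals1* and *Cd9*, 0.779 between *Cd9* and *Cd24* and 0.846 between *Lgals3bp* and *Lgals9*. *Lgals3* and *Lgals3bp* had an r of 0.613, and *Lgals3* and *Cd44* one of 0.669. These correlations describe 8 arrays that share RNA samples, dyes and slide rows.

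Marker genes of other cell types moved on the same arrays. The median log2 ratio of 10 choroid plexus markers was -1.37 on array 6 and -1.42 on array 7, against 0.08 to 0.52 on the other arrays, and their summed log2 level was 12.49 to 17.15 in the RA channels and 12.41 to 18.00 in the vehicle channels. The median of 14 hypothalamic neuropeptide genes was -0.59 on array 5 and -0.47 on array 8, against -0.04 to 0.24 elsewhere. That of 7 fibroblast and meningeal markers was -0.59 and -0.625 on the same arrays, against -0.01 to 0.39 elsewhere. The median of the monocyte and macrophage markers was highest on arrays 6 and 7, at 0.71 and 0.85, both of which are the ratio of *Cybb*. *Cybb* was well above background on 4 arrays in the RA channel and 1 in the vehicle channel. Single markers differed, as *Plac8* (3.11 and 3.25) and *Fcgr1a* (1.57 and 1.78) were highest on arrays 5 and 8. *Lyz2* was highest on array 5 (2.00) and *Cd14* on array 8 (2.29), with 2.24 on array 6. The part of these shifts in the ratios of the 8 genes was not tested.

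**Figure D3:**
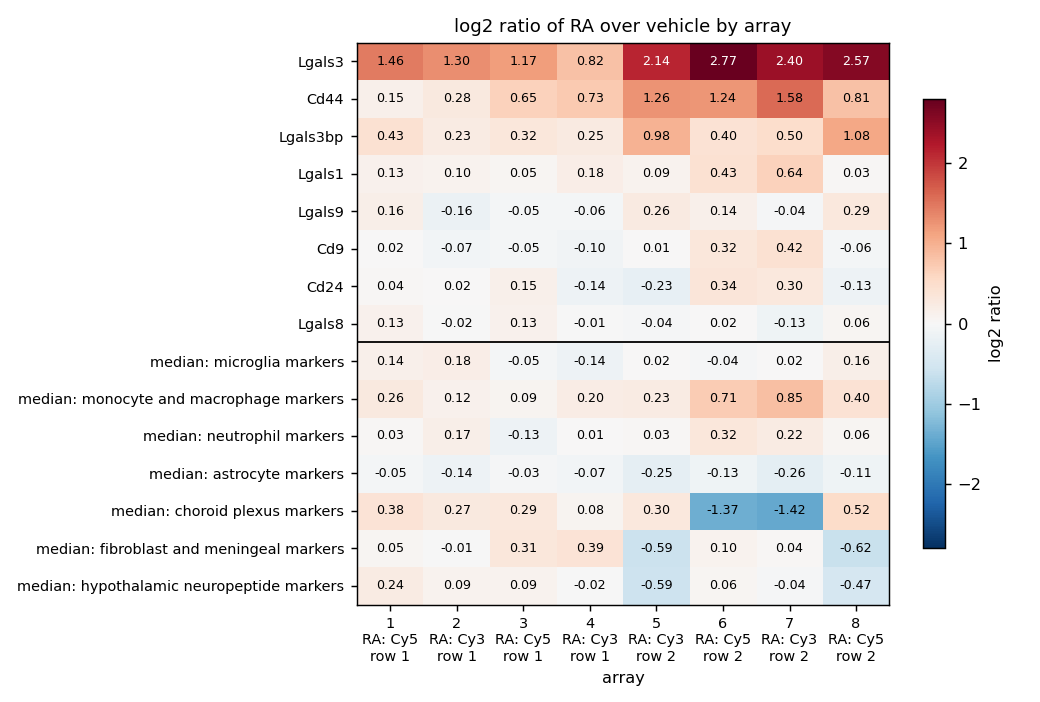
Log2 ratio of RA over vehicle (colour and printed value) on each of 8 arrays (columns, with the dye that carried RA and the row of the slide) for the 8 genes (upper rows) and for the median of marker lists (lower rows). *Lgals1*, *Cd9* and *Cd24* are highest on arrays 6 and 7, where choroid plexus markers are at -1.37 and -1.42, and *Lgals3bp* and *Lgals9* are highest on arrays 5 and 8, where neuropeptide genes are at -0.59 and -0.47 and fibroblast and meningeal markers at -0.59 and -0.625.

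Of 10 monocyte and macrophage markers 9 were measured, all 9 had a log2 fold change above 0, and 4 rose. These were *Plac8* with 2.03, the lipopolysaccharide co-receptor gene *Cd14* with 1.43, the lysozyme gene *Lyz2* with 1.30 and the high-affinity IgG receptor gene *Fcgr1a* with 1.11 on the log2 scale (unadjusted limma p of 4.59e-04, 2.06e-04, 8.90e-04 and 4.50e-04). Their list had a median of 0.27 and a summed log2 level of 13.42 to 15.59 in the RA channels against 12.66 to 13.67 in the vehicle channels. Of the 9, 4 were well above background in both channels on all arrays and 0 on none, although *Ccr2*, which marks blood monocytes, was so on 1 array in the RA channel and 0 in the vehicle channel. Of 10 microglia markers 3 rose, namely *Cd68* (1.07), *Aif1* (0.88) and *Itgam* (0.87), and *Tmem119* fell by 0.52, with a list median of 0.03 and a summed level of 14.25 to 15.05 against 14.12 to 14.71. Among 10 astrocyte markers *Gfap* rose by 1.40 (unadjusted limma p of 1.77e-04) and *Slc4a4* and *Gja1* fell by 0.28 and 0.22, with a list median of -0.15 and a summed level of 17.36 to 17.71 against 17.46 to 17.76. *Lgals3* and *Cd44* are also expressed by these cells, and the part of these lists in the rise of either gene was not tested.

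The remaining marker lists held 0 to 2 genes past the threshold. Of 7 neutrophil markers measured *S100a9* rose (1.25), with a median of 0.05, while *Elane* and *Mmp8* were well above background on none. *Vim* (0.62) and the chemerin gene *Rarres2* (0.40) rose among 10 ependymal and tanycyte markers (median -0.01). *Opalin* and *Ermn* fell by 0.27 and 0.30 among 9 oligodendrocyte markers (median -0.19), *Cartpt* by 0.42 among the neuropeptide genes (median -0.08) and *Nefl* by 0.30 among 7 neuron markers (median -0.14). None of 10 choroid plexus, 8 endothelial or 7 fibroblast and meningeal markers passed (0 in each, with 0, 1 (*Cldn5*) and 0 at an unadjusted limma p under 0.05 and medians of -0.13, -0.02 and -0.05). Neuron and neuropeptide genes were well above background on all arrays for 7 of 7 and 13 of 14 genes, so markers of the labelled tissue were present. In the fits that left out 2 arrays, *Plac8*, *Cd14*, *Lyz2*, *Fcgr1a*, *Gfap*, *Aif1*, *Itgam* and *Opalin* passed in 16 of 16, and the other marker genes named here as risen or fallen passed in 4 to 14. Their adjusted limma p lay between 0.222 and 0.306.

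Related genes were described through 6 lists, of which 58 of 65 genes were measured. At an unadjusted limma p under 0.01 7 of the 58 were higher and 1 was lower after RA, with a median log2 fold change of 0.05, beside 534 higher and 120 lower among all named genes. Of 7 other galectin genes none passed (0, and 0 at an unadjusted limma p under 0.05), their median was -0.01, and they ranged from -0.10 for the galectin-related gene *Lgalsl* to 0.06 for *Lgals5*, with -0.05 for *Lgals12*. Of the 7, 3 were well above background in both channels on all arrays, and *Lgals2* and *Lgals4* on none of the arrays. *Lgals12* was so on 1 array in either channel, and *Lgals7* on 4 arrays in the RA channel and 5 in the vehicle channel. The ratios of these weakly detected genes say little about their transcripts. *Lgals5* was above 0 on 6 of 8 arrays, with an unadjusted limma p of 0.424.

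Among 10 galectin receptors, ligands and partners *Ptprc* and *Itgam* rose. *Ptprc*, the gene of the leukocyte phosphatase CD45, had log2 ratios of 0.39 to 0.61 on arrays 1 to 4 and 1.32 to 1.83 on arrays 5 to 8. Its log2 fold change was 1.04 ± 0.21 (SE) (unadjusted p = 0.00169 and adjusted p = 0.248 in limma). *Itgam*, the integrin alpha M gene, had a log2 fold change of 0.87 ± 0.18 (SE) (unadjusted p = 0.00174 and adjusted p = 0.25 in limma). The TIM-3 gene *Havcr2* had a log2 fold change of -0.10 (unadjusted limma p of 0.111), and the list median was -0.0047.

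On the CD44 side, *Spp1* and *Msn* rose among 12 measured ligands, adaptors and proteases. *Spp1*, which encodes osteopontin, had log2 ratios of 1.61, 1.57, 0.36 and 0.35 on arrays 1 to 4 and 3.04, 3.73, 3.55 and 3.37 on arrays 5 to 8. The lowest values were those of arrays 3 and 4, and the rows did not overlap. Its log2 fold change was 2.20 ± 0.49 (SE) (unadjusted p = 0.00249 and adjusted p = 0.26 in limma), a 4.59-fold rise, and without arrays 8 and 5 it was 1.86 with an unadjusted limma p of 0.0110, the single fit of 16 in which it missed the threshold. *Msn*, which encodes the actin linker moesin, had a log2 fold change of 0.30 (unadjusted p = 0.00537 in limma), which missed the threshold without arrays 6 and 7 (0.23, unadjusted limma p of 0.0201) and without arrays 8 and 5 (0.27, unadjusted limma p of 0.0222), and passed in 7 of the 16 fits that left out 2 arrays. The invariant chain gene *Cd74* had a log2 fold change of 1.07 ± 0.33 (SE) (unadjusted p = 0.0132 in limma). The list median was 0.15.

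Of 13 measured genes that make, degrade or bind hyaluronan, the main ligand of CD44, *Lyve1*, a hyaluronan receptor gene of lymphatic vessels and perivascular macrophages, rose, with a log2 fold change of 0.34 ± 0.09 (SE, unadjusted limma p of 0.00567), and without arrays 6 and 7 it was 0.24 (unadjusted limma p of 0.0158). It passed in 8 of the 16 fits that left out 2 arrays. The synthase genes *Has2* and *Has3* and the receptor gene *Hmmr* were well above background on none of the arrays. *Hyal1* and *Vcan*, next by p, had values of -0.08 and 0.10 (unadjusted limma p of 0.149 and 0.201). The list median was 0.01.

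Among 11 measured tetraspanins and CD9 partners *Cd63* rose and *Tspan2* fell. *Cd63*, a tetraspanin of late endosomes, had a log2 fold change of 0.34 (unadjusted p = 0.00837 in limma), and without arrays 6 and 7 it was 0.22 (unadjusted limma p of 0.0127), and it passed in 6 of the 16 fits that left out 2 arrays. The myelin tetraspanin gene *Tspan2* fell by 0.29 on the log2 scale (unadjusted p = 5.58e-04 in limma). Its log2 ratio was -0.06 to -0.03 on arrays with RA in Cy5 and -0.65 to -0.36 on arrays with RA in Cy3, so all 8 arrays lay below 0 but the sizes differed between the dye orders (unadjusted limma p of 0.426 with RA in Cy5 only). *Tspan2* passed in all 16 fits that left out 2 arrays. The leukocyte tetraspanin gene *Cd53* had a log2 fold change of 0.73 (unadjusted p = 0.0136 in limma), with ratios of 1.06 to 1.47 on arrays 5 to 8 and -0.26 to 0.64 on arrays 1 to 4. The list median was 0.09.

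The CD24 list held 5 measured genes. *Fgr*, a Src-family kinase of myeloid cells, rose by 0.71 ± 0.17 (SE) on the log2 scale (unadjusted p = 0.00372 in limma), and without arrays 8 and 5 it was 0.64 (unadjusted limma p of 0.0191), although it passed in 14 of the 16 such fits. *Fyn* and *Lyn*, kinases of the same family, had values of 0.08 and 0.11 (unadjusted limma p of 0.130 and 0.169). The P-selectin gene *Selp* was well above background on none of the arrays, and the list median was 0.08.

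**Figure D4:**
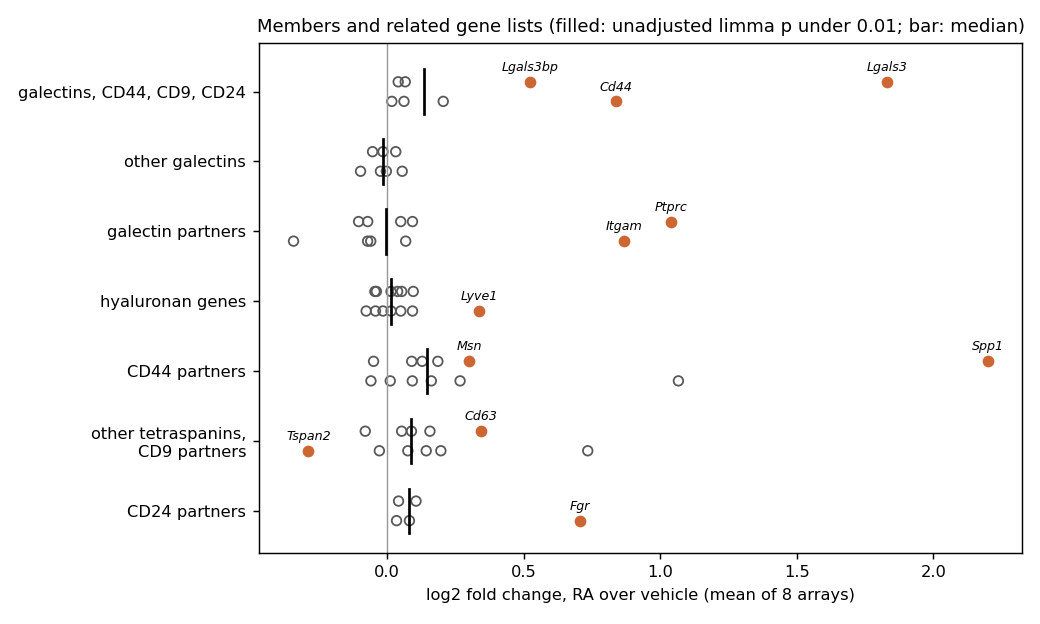
Log2 fold change of RA over vehicle (x axis, mean of 8 arrays) of each measured gene in the 8 genes described here and in 6 lists of related genes (y axis). Filled points passed an unadjusted limma p of 0.01 and vertical bars are list medians. *Lgals3* (1.83) and *Spp1* (2.20) lie farthest to the right, and the other galectins lie between -0.10 and 0.06.

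For each gene that rose, the 3 named genes with the most similar log2 ratios over the 8 arrays were taken from 9461 genes well above background everywhere. For *Lgals3* these were the IgG receptor gene *Fcgr2b* (Pearson's r = 0.991, log2 fold change 1.35), the kinase gene *Pkmyt1* (r = 0.990, 0.51) and the histone variant gene *H2az1* (r = 0.984, 0.25). For *Cd44* they were *Tmem100* (r = 0.984, 0.23), the chloride channel gene *Clic1* (r = 0.981, 1.05) and the transcription factor gene *Runx1* (r = 0.979, 0.47). For *Lgals3bp* they were the MHC class II gene *RT1-Bb* (r = 0.978, 1.26), *Phf11* (r = 0.974, 0.39) and the chemokine gene *Cxcl16* (r = 0.973, 0.74). An r above 0.9 was reached by 160 of the 9461 genes for *Lgals3*, 78 for *Cd44* and 63 for *Lgals3bp*, so these neighbours were selected from many, over 8 arrays that share RNA.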

How the data were processed

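The authors deposited, for each of 8 arrays, scanner output with Cy3 and Cy5 intensity per spot on a linear scale, the log10 ratio of Cy5 over Cy3 computed by Agilent Feature Extraction 10.7.3.1, and 0 or 1 marks (unit other) for control, outlier, saturated and well-above-background spots. A series table that the authors deposited holds their normalised log2 ratios, already turned to RA over vehicle (r of 0.985 to 1.00 with loess ratios computed here without background correction). Labelling started from 100 ng of total RNA. Genome build and annotation of the probes are not given in the sources used here.

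Median spot and background intensity were corrected with normexp (offset 50) and normalised by loess within arrays, in R 4.3.3 with limma 3.58.1. The log2 ratios were not scaled between arrays. The log2 intensities and summed levels of the RA and vehicle channels were computed after quantile normalisation of the mean intensity between arrays (Aquantile). Control and outlier spots were dropped, while saturated spots, at most 2 in a channel, stayed in, and spots of a probe averaged. Probes matched RefSeq GRCr8 genes by unversioned accession (18006 of 30367 probes, 59.29%). Well above background means that at least 0.5 of a probe's spots carried that mark. limma (lmFit, eBayes) was run on 4 pair means, each of 1 array of either dye order, over all 30367 probes and all 24 pairings, and the largest p and its standard error were kept. On simulated data with 30347 probes, 96% of probes changed by 0.5 and 100% of those changed by 1 were called at 0.01, beside 0.6% of unchanged probes. The simulated noise was drawn independently for each probe, without shifts shared by many genes of an array, so these rates may not hold for the data.

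The 8 genes, the lists and the motifs were chosen with earlier results of these data known. From each list up to 3 genes with the lowest p are named, and beside each gene that rose its 3 most correlated genes. Other genes named were chosen after their values were seen. Precision is limited by the small number of arrays. The 33 alternatives covered background correction, ratios, scaling, probe filters, pairing, dye order, slide row and arrays left out.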

Additional observations from a re-analysis of the deposited data

Results flagged for a closer look

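In 52 groups of 4 arrays of 1 dye order, over the 8 genes and the medians of the lists, 6 values, all on arrays 6, 7 and 8, lay far from the other 3 of their group. Chance alone gives about 1 in 20 such groups, or 2.6 here, for groups that are independent, whereas these share arrays and RNA. For *Lgals1* this was array 7, whose log2 ratio was 0.64 where the other arrays with RA in Cy3 gave 0.09 to 0.18. For *Lgals3bp* it was array 8, with 1.08 where the others with RA in Cy5 gave 0.32 to 0.43. The median over the 8 genes was 0.365 on array 6, against 0.14 to 0.18. The monocyte and macrophage median was 0.85 on array 7, which is the ratio of *Cybb* alone, against 0.12 to 0.23. The choroid plexus median was -1.37 on array 6, against 0.29 to 0.52, and -1.42 on array 7, against 0.08 to 0.30.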

How the results depend on the processing

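*Lgals3* passed an unadjusted limma p of 0.01 in all 33 alternatives, with a log2 fold change of 1.19 to 2.47 and a largest p of 0.00698 with Agilent's log ratio. *Cd44* and *Lgals3bp* each passed in 31, and missed the threshold with plain background subtraction (log2 fold changes of 1.03 and 0.54, unadjusted limma p of 0.0111 and 0.0230) and with Agilent's log ratio (1.04 and 0.53, unadjusted limma p of 0.0158 and 0.0373), where 1 of the 8 genes was called. The cause was not tested. *Lgals1* passed with the pairing of lowest p (0.00363) and with slide row as a term (0.00891). After Benjamini-Hochberg adjustment, the pairing of lowest p gave limma adjusted p values of 1.98e-07 for *Lgals3*, 1.05e-05 for *Cd44*, 7.35e-04 for *Lgals3bp* and 0.0424 for *Lgals1*, slide row as a term gave 1.01e-07, 1.09e-04 and 0.00181 for the first 3, the first row only 0.00419 for *Lgals3*, and the second row only 3.85e-04 for *Lgals3* and 0.00426 for *Cd44*. Beside these, and the fits with independent arrays and a random block given above, no alternative brought any of the 8 genes under an adjusted p of 0.05. The fit with slide row as a term also counts arrays that share RNA as separate replicates. Its row term takes out differences between rats if the rows hold different rats, and each single-row fit rests on the arrays of that row only. With 2 arrays left out, the log2 fold change was 1.58 to 2.11 for *Lgals3*, 0.65 to 1.05 for *Cd44*, 0.36 to 0.61 for *Lgals3bp* and 0.10 to 0.25 for *Lgals1*, and 3 of the 8 genes were called in all 16 such fits. The sign of *Lgals8* turned with Agilent's log ratio (-0.0215), RA in Cy3 only (-0.0473) and the second slide row only (-0.0219), that of *Lgals9* with RA in Cy3 only (-0.0018) and the first row only (-0.0311), that of *Cd9* with the first row only (-0.0505) and that of *Cd24* with RA in Cy3 only (-0.0143). With 2 arrays left out *Lgals9* ranged from -0.0031 to 0.13, *Cd9* from -0.0411 to 0.11 and *Cd24* from -0.0507 to 0.12, with values of -0.0007, -0.0191 and -0.0041 for *Cd24* in between. Among the related genes named as not passing, the sign turned for *Lgals5* with RA in Cy3 only (-0.0188), the first row only (-0.0502) and down to -0.0149 with 2 arrays left out, for *Lgals12* with the deposited values (0.1371), outlier spots kept (0.1069), RA in Cy5 only (0.0009), the first row only (0.0226) and with array 5 and 1 of arrays 3, 6 and 8 left out (0.0357, 0.0101 and 0.0399, in a range from -0.11), for *Hyal1* with RA in Cy5 only (0.1178), and with the first row only for *Vcan* (-0.0036) and *Lyn* (-0.0128). With bright probes only, *Lgals12*, *Havcr2*, *Hyal1* and *Lyn* gave no value. Named genes past the threshold numbered 172 with plain subtraction, 216 with Agilent's log ratio, 2290 with the lowest p, 1511 with independent arrays, 1094 with a random block, 1216 with RA in Cy5 only, 1240 with RA in Cy3 only, 987 on the second row only, 1887 with slide row as a term and 321 to 739 with 2 arrays left out. Those of the 6 related lists numbered 2, 1 and 16 with plain subtraction, Agilent's log ratio and the lowest p, and 4 to 9 with 2 arrays left out. No single pairing was chosen because the arrays of the dye orders share no number in the labels that could fix 1 pairing. All 24 pairings of arrays of opposite dye order were fitted instead. The pairing of arrays with like *Ttr* and *Crym* ratios, given above, was 1 of the 24 and is not reported by itself.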
